A study of Homo sapiens with 15 samples.

Results

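Heat shock proteins and chaperones are described here as a set of 50 genes, chosen by symbol and matched to the Ensembl gene IDs of the deposited counts, of 61552 genes in all. The set was kept apart by compartment into 35 genes whose products work in the cytosol and nucleus, 10 of the endoplasmic reticulum (ER) and 5 of the mitochondria. The RNA came from MDA-MB-468, an established human breast cancer cell line, in 15 libraries of polyA RNA, 3 per group. In the drug experiment, cells kept without serum for 12 h received EGF at 10 ng/mL, with no drug in the group labelled EGF. The other arms also received, for 12 h, either cSNX1.3 at 10 μM (labelled cSNX), a peptide made to keep EGFR from Sorting Nexin 1 and thereby out of the nucleus, or erlotinib at 15 μM (labelled ERL), an inhibitor of the EGFR tyrosine kinase. The EGF libraries carried no control peptide. In the line experiment, cells carried a lentiviral, IPTG-inducible short hairpin RNA against EGFR, switched on with 1 mM IPTG for 2 days and then kept on, and were transfected with an EGFR-GFP plasmid that was wildtype (WT, labelled shEGFR-WT) or mutated at 3 basic residues of its nuclear localization sequence (ΔNLS, labelled shEGFR-NLS). Both lines were given EGF, at a dose not given in the sources used here, and both carried the hairpin, so ΔNLS was compared with WT and not with unmodified cells.

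Chaperones bind unfolded or partly folded proteins and keep them from aggregating while they fold, assemble or cross a membrane. HSP70 proteins do this in cycles driven by ATP that are started by J-domain (DNAJ) proteins and reset by nucleotide exchange factors, HSP90 proteins finish the folding of many kinases and receptors with the help of co-chaperones, and the ring-shaped CCT complex folds actin and tubulin. When unfolded proteins build up in the cytosol, the transcription factor HSF1 binds heat shock elements in the promoters of many of these genes, and when they build up in the ER, the unfolded protein response raises ER chaperones through ATF6 and XBP1, which act on ER stress elements. Many tumor cells carry high levels of HSP90 and HSP70, and EGFR is among the receptors that HSP90 helps to fold.

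All 50 genes were matched to an ID, HSPB11 under its current symbol IFT25. The filter on low counts left 49 of them in each comparison, and HSPB8, a small heat shock protein, was left out. Library totals ranged from 22915676 to 35900649 counts, and levels are given as CPM (counts scaled to a common library total) on the TMM scale, which also corrects for the makeup of the library, of each experiment's own fit, so levels of the drug and the line experiments were not set on the same scale. The counts of every pair of replicates differed beyond counting error (chi-square per degree of freedom at least 2.60), so each library was counted once. The labels do not say whether the 3 replicates of a group were separate cultures, so the p-values measure only the spread between these samples. As a check of the cells, the keratin KRT8 was at 2450 to 7963 CPM in the drug libraries and 4615 to 9380 CPM in the line libraries, while the leukocyte markers PTPRC, CD3E and CD68 and the fibroblast marker COL3A1 had at most 8 counts in any library. Of 7 epithelial markers, 3 were lower with erlotinib (KRT8 at -1.20, KRT18 and KRT7) and 1 was higher (CDH1 at 0.47), 1 was higher with cSNX1.3 (KRT18), and in ΔNLS 5 were lower (KRT8 at -0.73) and 1, EGFR, was higher. Of 9 markers of other cell types, 4 passed the filter, and their sum was 17.45 to 20.45 CPM with EGF, 13.05 to 17.52 with erlotinib, 22.21 to 23.74 with cSNX1.3, 18.35 to 18.63 in WT and 15.62 to 17.39 in ΔNLS. Most of that sum was COL1A1, which was lower with erlotinib and in ΔNLS. The endothelial markers, with at most 33 counts a library, did not move together. VWF was higher with erlotinib (log2 fold change 2.38), where CDH5 at -0.47 and PECAM1 at 0.15 were not called. CDH5 was higher in ΔNLS (1.28), where VWF at -0.59 and PECAM1 at 0.01 were not called. The part of these markers in the results was not tested. EGFR itself, whose counts do not separate the endogenous gene from the plasmid, was at 1168 to 1467 CPM in WT and 1711 to 1781 CPM in ΔNLS.

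Heat shock elements and ER stress elements were searched in RefSeq promoter windows (GRCh38.p14, 250 bases before to 50 after the start of transcription), which were at hand for 47 of the 50 genes. The 2-unit heat shock element was searched as GAA and TTC, in either order, with 2 bases of any kind between them, and the 3-unit element as these triplets in turn (GAA, TTC, GAA or TTC, GAA, TTC) with 2 bases of any kind between neighbors, so that every 3-unit match holds the 2-unit forms. The ER stress element was searched as CCAAT, 9 bases of any kind and CCACG, and all were searched on both strands. The 3-unit heat shock element was found in 8 genes, namely HSPA6, HSPA8, HSP90AA1, HSP90AB1, DNAJA1, DNAJB6, CHORDC1 and the mitochondrial HSPD1, and in 0.608% of all 27305 genes with a window. The 2-unit form was found in 20 of the 47, of which 18 were cytosolic and 2 mitochondrial, and in 16.2% of all genes. The ER stress element was found in HSPA5, HSP90B1 and XBP1, all of the ER, and in 0.0916% of all genes. A match is a description of these letters and not evidence that a factor binds there. The stretches below come from the inducible and constitutive heat shock genes and the ER genes that the results turn on, with HSPA1A and HSPA1B to show how alike that pair is, and the capitals mark the matched element, read 5′ to 3′ on the gene's own strand.
HSPA6, chr1:161524431-161524513, plus strand: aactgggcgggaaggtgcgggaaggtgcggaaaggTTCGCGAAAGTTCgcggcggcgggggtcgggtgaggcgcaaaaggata
HSP90AA1, chr14:102087085-102087167, minus strand: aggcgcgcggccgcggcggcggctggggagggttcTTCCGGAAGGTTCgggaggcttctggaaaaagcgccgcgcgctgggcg
HSP90AB1, chr6:44247743-44247878, plus strand: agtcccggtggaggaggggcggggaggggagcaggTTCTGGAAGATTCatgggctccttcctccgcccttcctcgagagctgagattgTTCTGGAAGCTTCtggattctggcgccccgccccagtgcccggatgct
HSPA1A, chr6:31815402-31815479, plus strand: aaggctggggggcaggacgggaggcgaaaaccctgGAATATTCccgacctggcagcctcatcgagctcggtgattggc
HSPA1B, chr6:31827598-31827675, plus strand: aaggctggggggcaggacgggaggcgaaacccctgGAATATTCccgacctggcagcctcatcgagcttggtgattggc
HSPA5, chr9:125241356-125241444, minus strand: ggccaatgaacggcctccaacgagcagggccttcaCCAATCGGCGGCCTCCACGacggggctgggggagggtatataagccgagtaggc
HSP90B1, chr12:103930216-103930234, plus strand: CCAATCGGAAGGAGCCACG
HSP90B1, chr12:103930321-103930339, plus strand, matched on the minus strand: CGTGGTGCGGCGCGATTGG
XBP1, chr22:28800570-28800656, minus strand: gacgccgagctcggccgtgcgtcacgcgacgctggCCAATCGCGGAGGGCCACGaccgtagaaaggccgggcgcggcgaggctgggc
HSP90AB1 carried its 3-unit element in 2 places, and HSP90B1 its ER stress element in 2 places.

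With EGF alone, the levels of the members spanned a wide range. On the scale of CPM per kb of the canonical transcript, the cytosolic HSP90 gene HSP90AB1 was highest at 1069, followed by the constitutive HSP70 gene HSPA8 at 956.5, the small heat shock protein HSPB1 at 581.4, the stress-inducible HSP90 gene HSP90AA1 at 426.5 and the mitochondrial chaperonin HSPD1 at 403.9. CCT7, CCT3 and CCT5 followed at 383, 324.9 and 263. The strictly stress-inducible HSP70 gene HSPA6 was at 0.0425 CPM per kb and HSPB8 at 0.0146, while the other inducible HSP70 genes HSPA1A and HSPA1B were at 42.47 and 32.39. Over the 3 EGF libraries HSP90AB1 ranged from 1011 to 1173 and HSPA8 from 880.1 to 1093 CPM per kb, so these neighbors overlapped, as did HSP90AA1 and HSPD1, while HSPB1 overlapped neither HSPA8 nor HSP90AA1. The transcripts of HSPA1A and HSPA1B were identical at 95.2% of 2393 aligned bases, so reads that fit both may have been lost or given to the wrong copy, and the value of each is uncertain. HSPA1A and HSPA6 were identical at 77.6%.

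In erlotinib vs. EGF, which asks what inhibition of the EGFR kinase does to the transcripts of EGF-stimulated cells, most chaperone genes were lower. Of 49 tested members, 33 were called at an adjusted p under 0.05 (quasi-likelihood test of edgeR, adjusted over all genes by Benjamini and Hochberg), against 44.0% of all 15738 genes. A total of 29 members were lower, against 21.2% of all genes, and 4 were higher, against 22.8% of all genes. The median log2 fold change of the 49 was -0.37, against 0.01 for all genes, and 40 of them were below 0. By compartment, 19 of 34 cytosolic, 5 of 10 ER and 5 of 5 mitochondrial members were lower, and their medians were -0.36, -0.34 and -0.45. The 4 that rose were XBP1, DNAJB4, DNAJB9 and DNAJB2. In bulk samples less RNA per cell and fewer cells of a state cannot be told apart.

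**Figure D1:**
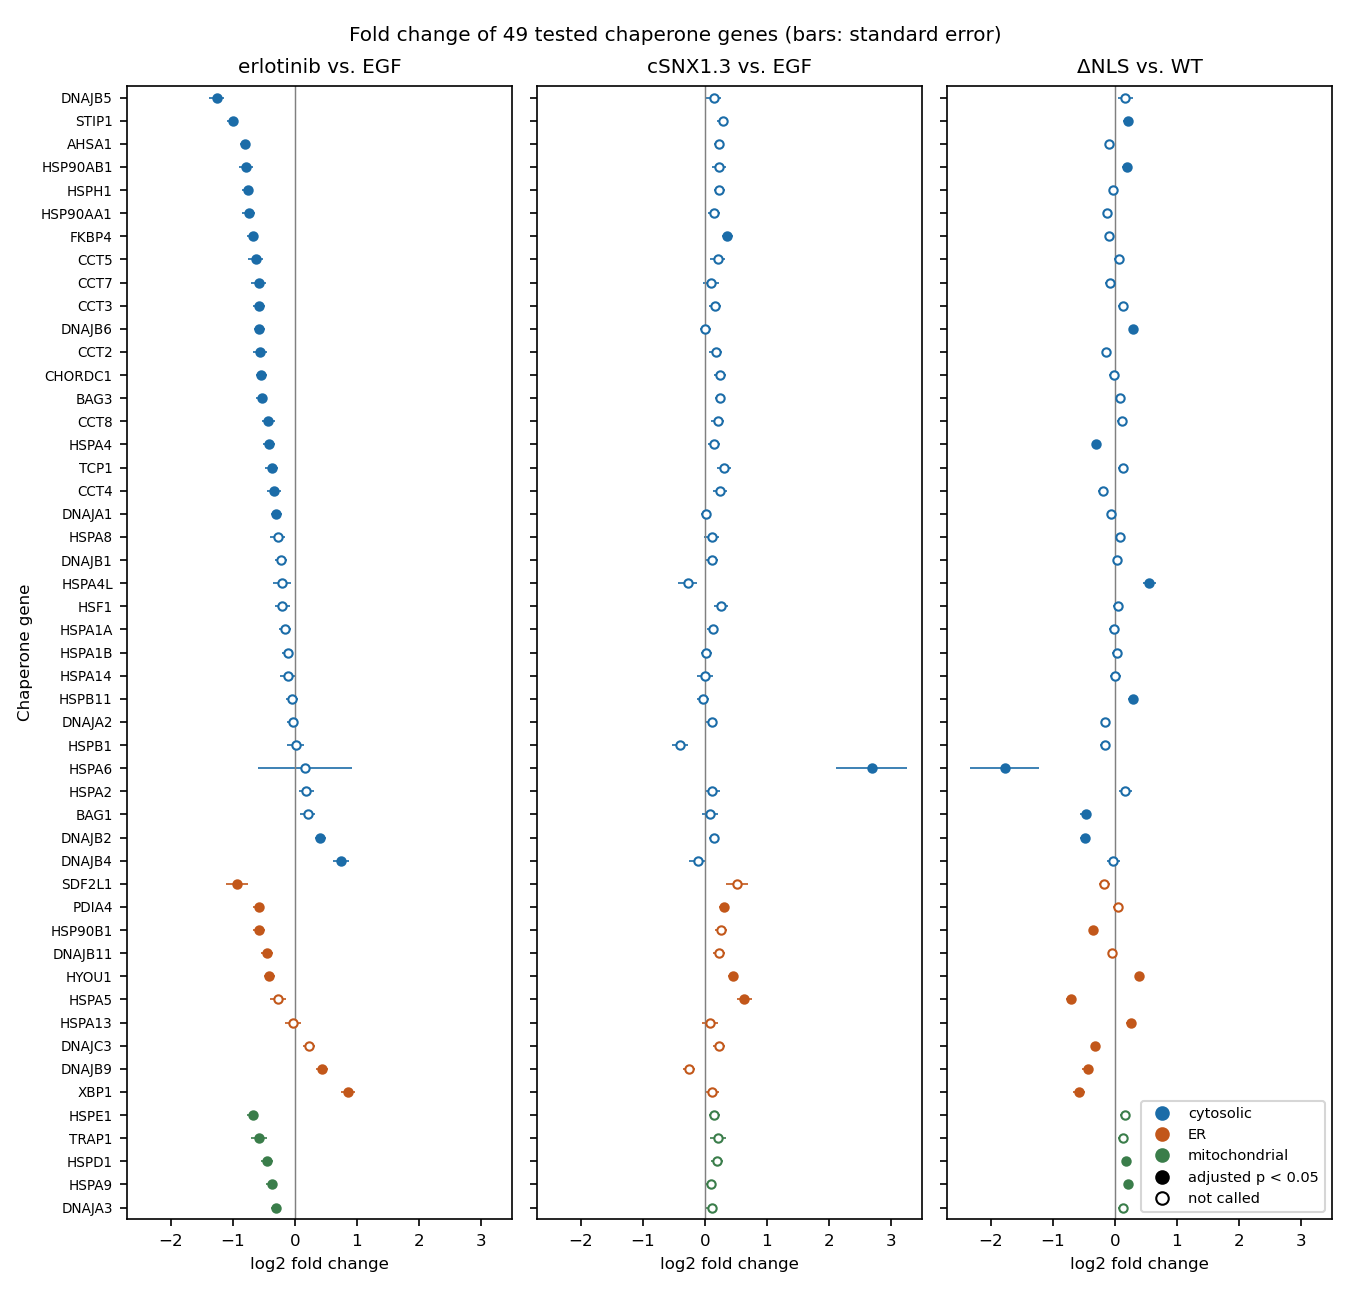
Log2 fold change (x axis) of 49 tested chaperone genes (y axis) with erlotinib and with cSNX1.3, each against EGF, and in ΔNLS against WT, with bars for the standard error, colors for the compartment and filled points for an adjusted p under 0.05. With erlotinib 29 filled points lie left of 0 and 4 right of it, with cSNX1.3 all 5 lie right of it, and in ΔNLS 9 lie on each side.

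The HSP90 group of the cytosol, that is HSP90 and its co-chaperones in the set, was lower with erlotinib in 6 of 6 members. The log2 fold changes were from -1.0 to -0.54, and 21.2% of all genes were lower. Some co-chaperones outside the set, given below, were not called. HSP90AA1 was at 1384, 1406 and 1340 CPM with EGF and at 728, 879.6 and 857 CPM with erlotinib. These values did not overlap, and the log2 fold change was -0.75 (standard error 0.10, adjusted p = 2.40e-05). HSP90AB1, its constitutive counterpart, was at 2613, 2997 and 2582 CPM with EGF and at 1630, 1589 and 1539 CPM with erlotinib. It too was lower in every erlotinib library, and the log2 fold change was -0.78 (standard error 0.11, adjusted p = 3.83e-05). STIP1, the adaptor that brings HSP70 and HSP90 together, had the largest change of the group. It was at 499.0, 499.6 and 486.5 CPM with EGF and at 259.7, 257 and 224 CPM with erlotinib, a log2 fold change of -1.0 (standard error 0.09, adjusted p = 3.88e-07). AHSA1, which stimulates the ATPase of HSP90, fell by 0.81 on the log2 scale, the immunophilin FKBP4 by 0.68 and the co-chaperone CHORDC1 by 0.54. None of these 6 calls was lost under any alternative run for this comparison.

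All 7 subunits of the CCT ring that are in the set were lower with erlotinib, with log2 fold changes from -0.63 for CCT5 to -0.34 for CCT4. CCT5 was at 818, 993 and 787 CPM with EGF and at 576, 563 and 535 CPM with erlotinib, so the groups did not overlap. The call for CCT4 (adjusted p = 0.0237) was lost without EGF replicate 2, without erlotinib replicate 1 and without erlotinib replicate 3. For CCT5, 30.8% of the exonic bases overlap another annotated gene, and strand was not used in counting.

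Of the HSP70 proteins of the cytosol, 2 of 9 were lower, which is near the 21.2% of all genes. None was higher, against 22.8% of all genes, and the median log2 fold change was -0.16. The 2 that were lower were HSPH1 and HSPA4, nucleotide exchange factors of the HSP110 branch. HSPH1 was at 187, 184 and 182 CPM with EGF and at 99.5, 114 and 113 CPM with erlotinib, a log2 fold change of -0.76 (standard error 0.09, adjusted p = 4.40e-06). Its EGF libraries lay close together and far above the erlotinib libraries. The members best known as stress-induced or constitutive HSP70 did not pass the test, with log2 fold changes of -0.27 for HSPA8 (adjusted p = 0.0763), -0.16 for HSPA1A (adjusted p = 0.181) and -0.11 for HSPA1B (adjusted p = 0.316). HSPA8 was called lower with DESeq2 as the test, without the filter and with all 15 libraries in the fit. HSPA6 had 1, 5 and 2 counts with EGF and 5, 1 and 4 counts with erlotinib, so no change could be told at this depth.

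Of the J-domain proteins of the cytosol, 3 of 7 were lower with erlotinib, against 21.2% of all genes, and 2 were higher, against 22.8% of all genes. DNAJB5 had the largest fall of any member. It was at 10.04, 11.7 and 12.2 CPM with EGF and at 4.78, 4.97 and 4.40 CPM with erlotinib, and no erlotinib library reached the lowest EGF library. Its log2 fold change was -1.26 (standard error 0.13, adjusted p = 1.14e-06). DNAJB4 went the other way, from 16.8, 15.7 and 16.1 CPM with EGF to 21.25, 30.5 and 29.4 CPM with erlotinib. Erlotinib replicate 1 lay nearest to EGF, and the log2 fold change was 0.74 (standard error 0.13, adjusted p = 0.000310). DNAJB2 rose by 0.41 on the log2 scale, DNAJB6 fell by 0.57 and DNAJA1 by 0.30. DNAJB1, the classic partner of stress-induced HSP70, had a log2 fold change of -0.23 that did not pass the test (adjusted p = 0.0636), and it was called lower with DESeq2, with all 15 libraries in the fit and without erlotinib replicate 1. BAG3, a nucleotide exchange factor that is itself a heat shock gene, fell by 0.54, and BAG1 was not called at 0.21 (adjusted p = 0.190). HSF1 was at 89.0, 100.1 and 88.7 CPM with EGF and at 95.1, 68.1 and 77.8 CPM with erlotinib, groups that overlapped (log2 fold change -0.20, adjusted p = 0.175), and it was called lower without erlotinib replicate 1. The log2 fold change of HSPB1 was at 0.01 (standard error 0.13, adjusted p = 0.958).

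**Figure D2:**
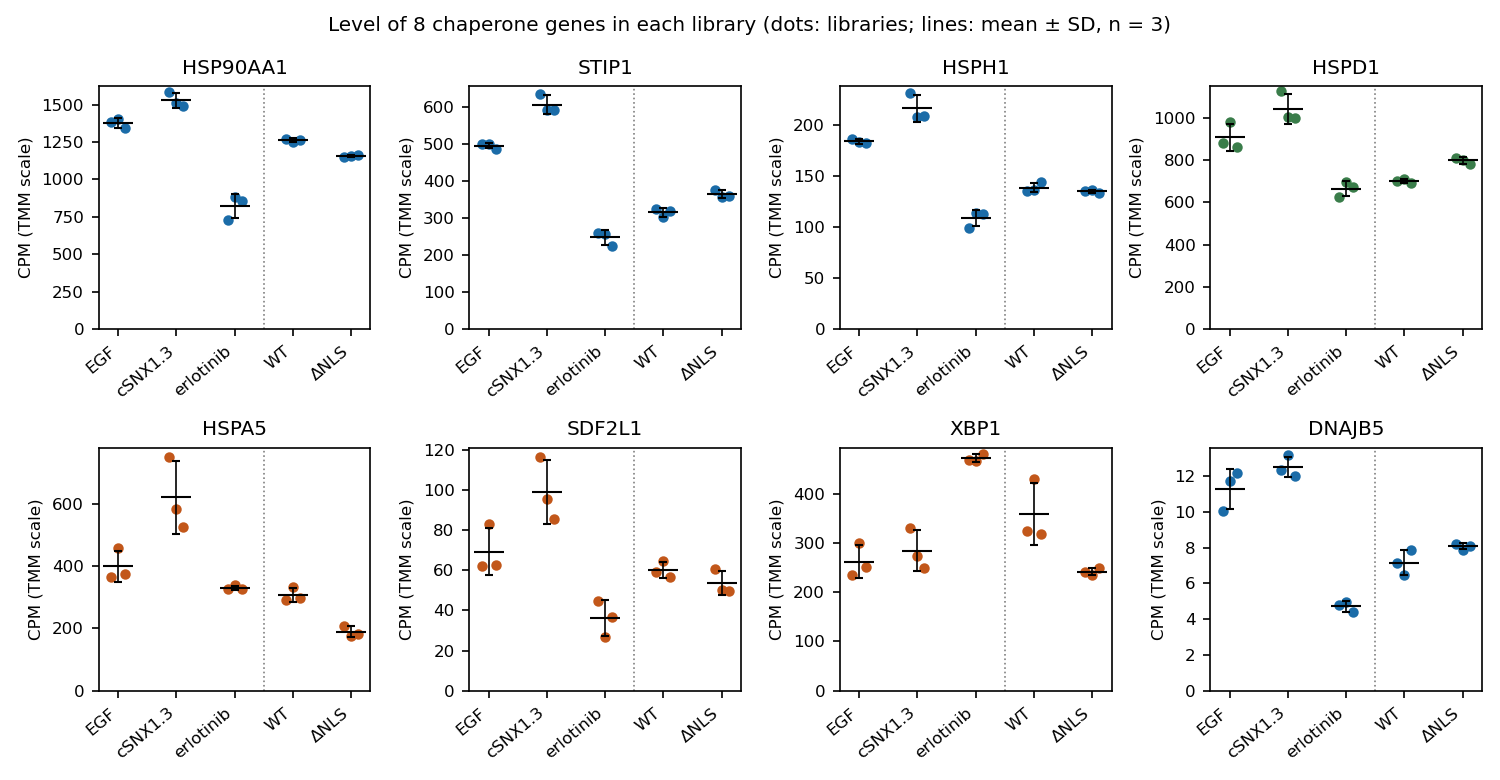
CPM on the TMM scale (y axis, from 0) of 8 chaperone genes in each library of the 5 groups (x axis), with dots for libraries and lines for the mean ± SD (n = 3), where the dotted line parts the drug and the line experiments, which were scaled apart. HSP90AA1, STIP1, HSPH1, HSPD1, SDF2L1 and DNAJB5 lie lower with erlotinib than with EGF, XBP1 lies higher with erlotinib, and HSPA5 lies higher with cSNX1.3 than with EGF and lower in ΔNLS than in WT.

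In the ER, 5 of 10 members were lower with erlotinib, against 21.2% of all genes, and 2 were higher, against 22.8% of all genes. The chaperones and folding enzymes SDF2L1, PDIA4, HSP90B1, DNAJB11 and HYOU1 were lower, and XBP1 and DNAJB9 were higher. SDF2L1, a partner of the ER HSP70 system, was at 62.3, 82.9 and 62.9 CPM with EGF and at 44.9, 26.9 and 36.6 CPM with erlotinib. The spread within each group was wide but the groups did not overlap, and the log2 fold change was -0.94 (standard error 0.18, adjusted p = 0.000923). HSP90B1, the HSP90 protein of the ER, was at 459.7, 498 and 469.9 CPM with EGF and at 287, 334 and 336 CPM with erlotinib, a log2 fold change of -0.58 (standard error 0.10, adjusted p = 0.000224). HYOU1, a nucleotide exchange factor of the ER, was at 255, 254.5 and 255 CPM with EGF and at 199, 189.7 and 186 CPM with erlotinib. Here the fall, -0.41 on the log2 scale (standard error 0.08, adjusted p = 0.000975), was smaller than for HSP90B1 but the EGF libraries were almost alike. HSPA5 (BiP), the HSP70 protein of the ER, was at 366, 458 and 375 CPM with EGF and at 327, 338 and 328 CPM with erlotinib, and its log2 fold change of -0.27 did not pass the test (standard error 0.12, adjusted p = 0.0896). It was called lower without the filter and in a fit of only these 2 groups.

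XBP1, the transcription factor of the unfolded protein response and not itself a chaperone, had the largest rise of any member with erlotinib. It was at 235, 299 and 250.5 CPM with EGF and at 469, 467 and 481 CPM with erlotinib. All erlotinib libraries lay well above all EGF libraries, and the log2 fold change was 0.85 (standard error 0.11, adjusted p = 2.20e-05). The counts are per gene and do not show whether the XBP1 transcript was spliced. DNAJB9, a J-domain protein that acts on BiP, was at 24.7, 26.0 and 22.5 CPM with EGF and at 33.2, 35.8 and 30.1 CPM with erlotinib, a log2 fold change of 0.44 (standard error 0.10, adjusted p = 0.00233). DNAJC3, which also acts on BiP, was at 0.22 and was not called (adjusted p = 0.0722), though it was called higher without erlotinib replicate 1 and with at least 10 counts required in every library.

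All 5 mitochondrial members were lower with erlotinib. HSPD1 (HSP60), the mitochondrial chaperonin, was at 879, 980.3 and 861 CPM with EGF and at 624, 694.5 and 674 CPM with erlotinib, a log2 fold change of -0.45 (standard error 0.10, adjusted p = 0.00169). HSPE1 (HSP10), the lid of that chaperonin, was at 60.7, 60.6 and 55.7 CPM with EGF and at 38.6, 35.3 and 36.5 CPM with erlotinib, a log2 fold change of -0.68 (standard error 0.09, adjusted p = 1.24e-05). Neither gene's groups overlapped, and the pair lies head to head in the genome with 17.9% of the exonic bases of HSPE1 overlapped by other annotated genes, HSPD1 among them. HSPA9 (mortalin), the mitochondrial HSP70, was at 446, 435 and 423 CPM with EGF and at 310.0, 361 and 336 CPM with erlotinib, a log2 fold change of -0.37 (standard error 0.09, adjusted p = 0.00283). TRAP1, the mitochondrial HSP90, was at 104, 129 and 101 CPM with EGF and at 88.9, 63.4 and 72.0 CPM with erlotinib, a log2 fold change of -0.58 (standard error 0.13, adjusted p = 0.00225). Of these genes TRAP1 had the widest spread within groups, and 28.5% of its exonic bases overlap other genes. DNAJA3 fell by 0.30, a call that was lost without erlotinib replicate 3.

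In cSNX1.3 vs. EGF, which asks what the peptide that lowers nuclear EGFR does, few members were called, and all of them were higher. This comparison uses the same EGF libraries as erlotinib vs. EGF, so the values are given side by side and no overlap was computed. Of 49 tested members, 5 were called, against 6.07% of all genes. All 5 were higher, against 3.38% of all genes, and 0 were lower, against 2.69% of all genes, by edgeR. With no adjustment, 18 members had a p under 0.05, against 3044 of all 15738 genes. The 5 were HSPA6, HSPA5, HYOU1, FKBP4 and PDIA4, of which 3 are of the ER, 2 of the cytosol and none of the mitochondria. HSPA6 entered the test only through its high group, and apart from it 4 were called. By DESeq2, 6 members were called, all higher, with SDF2L1 and STIP1 among them and HSPA6 without an adjusted p. Of all 14878 genes with an adjusted p by DESeq2, 666 were called higher.

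The shift was small but lay on one side. The median log2 fold change of the 49 was 0.15, against 0.00 for all genes, and 44 of 49 were above 0. In 21 members every cSNX1.3 library lay above every EGF library, against 12.9% of all genes. The medians were 0.14 in the cytosol, 0.25 in the ER and 0.15 in the mitochondria. A single library weighed on this. Relative to the mean of the EGF libraries, the median member of cSNX1.3 replicate 1 was at 0.31 on the log2 scale and that of replicates 2 and 3 at 0.13 and 0.08, while the EGF replicates were at -0.04, 0.11 and -0.07. The TMM factor of cSNX1.3 replicate 1 was the lowest of all libraries, at 0.901, and its part in the shift was not tested. Without cSNX1.3 replicate 1 the median was 0.10 and 36 of 49 members were above 0, and without EGF replicate 2 the median was 0.23 (this count by left-out library was added after seeing the data).

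**Figure D3:**
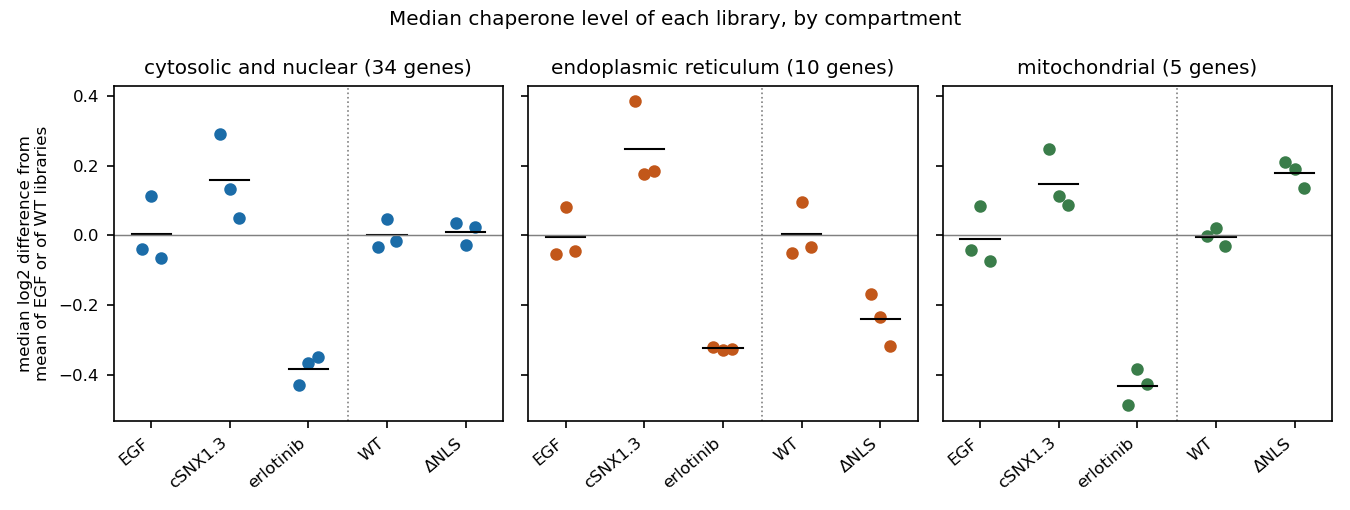
Median, over the tested members of each compartment, of the log2 difference of a library from the mean of the EGF libraries (left of the dotted line) or of the WT libraries (right of it), with dots for libraries and lines for the group mean. The erlotinib libraries lie below the EGF libraries in all 3 compartments, cSNX1.3 replicate 1 lies above the other cSNX1.3 replicates, and the ΔNLS libraries lie below WT in the ER and above it in the mitochondria.

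HSPA5 was the abundant gene with the largest rise with cSNX1.3. It was at 366, 458 and 375 CPM with EGF and at 753, 585 and 525 CPM with cSNX1.3. Every cSNX1.3 library lay above every EGF library, with replicate 1 the highest, and the log2 fold change was 0.64 (standard error 0.13, adjusted p = 0.00505). Over the alternatives its log2 fold change was between 0.47 and 0.75, and it was called in all of them. HYOU1, which resets BiP, went from 255, 254.5 and 255 CPM to 367, 355 and 324 CPM, a log2 fold change of 0.45 (standard error 0.08, adjusted p = 0.00333), and it too was called in every alternative. PDIA4, a disulfide isomerase of the ER, was at 182, 188 and 189 CPM with EGF and at 251, 228 and 213 CPM with cSNX1.3, and the log2 fold change was 0.31 (standard error 0.08, adjusted p = 0.0401). FKBP4 was at 125.5, 142 and 128.5 CPM with EGF and at 182, 165 and 161 CPM with cSNX1.3, and the log2 fold change was 0.36 (standard error 0.09, adjusted p = 0.0205). Neither PDIA4 nor FKBP4 was called when EGF replicate 1 or 3 or cSNX1.3 replicate 1 or 2 was left out, nor was PDIA4 without EGF replicate 2, with the replicate number as a block, without the filter on low counts or in a fit of only these 2 groups. The number of members called fell to 2 when EGF replicate 1 was left out and to 3 when EGF replicate 3 or cSNX1.3 replicate 2 was. When cSNX1.3 replicate 1 was left out it was 4, of which 3 were higher and HSPB1 was lower.

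HSPA6 had the largest fold change of any member, on few counts. It had 1, 5 and 2 counts with EGF and 11, 14 and 26 counts with cSNX1.3, that is 0.0408, 0.186 and 0.0738 CPM against 0.495, 0.579 and 0.942 CPM. HSPA6 passed the filter on low counts only through the cSNX1.3 libraries, the group where it was high, so its call is conditioned on that group and is given as a description. The groups did not overlap, and the fitted log2 fold change was 2.69 (standard error 0.57). The call was lost without EGF replicate 1 (adjusted p = 0.0591) and without cSNX1.3 replicate 3, and with DESeq2 as the test no adjusted p was given. The other genes of the inducible cytosolic response were not called. HSPA1A was at 99.5, 113 and 93.4 CPM with EGF and at 118, 112 and 103 CPM with cSNX1.3 (log2 fold change 0.13, adjusted p = 0.519), and DNAJB1 was at 0.11 (adjusted p = 0.585).

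The HSP90 group lay above 0 with cSNX1.3 in 6 of 6 members, from 0.15 to 0.36 on the log2 scale, with FKBP4 alone called. STIP1 was at 635, 590.7 and 589.9 CPM, above all 3 EGF libraries, with a log2 fold change of 0.29 (adjusted p = 0.0739). The 7 CCT subunits of the set were between 0.10 and 0.31 and none was called. The 5 mitochondrial members were between 0.10 and 0.21 and none was called. SDF2L1 was at 117, 95.6 and 85.5 CPM, above all 3 EGF libraries, with a log2 fold change of 0.52 and a wide standard error of 0.17 (adjusted p = 0.109). The 5 members below 0 were HSPB1 at -0.40 (adjusted p = 0.0891), HSPA4L at -0.27, DNAJB9 at -0.26, DNAJB4 at -0.12 and HSPB11 at -0.03. HSPB1 was at 438, 516 and 401 CPM with EGF and at 399, 320.3 and 310 CPM with cSNX1.3, and it was called lower without the filter, without cSNX1.3 replicate 1 and with all 15 libraries in the fit.

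When cSNX1.3 was set directly against erlotinib, which tests the difference between the drugs, 40 of 49 members differed, against 56.1% of all genes. A total of 35 were higher with cSNX1.3, against 27.6% of all genes, and 5 were lower, against 28.5% of all genes. The median log2 fold change was 0.63, against -0.01 for all genes. The HSP90 group was higher with cSNX1.3 in 6 of 6 members (0.79 to 1.29), CCT in 7 of 7 (0.58 to 0.84) and the mitochondrial members in 5 of 5 (0.42 to 0.84). After HSPA6 at 2.53, which rests on few counts and on the same filter, the largest differences were those of SDF2L1 at 1.45 (standard error 0.18), DNAJB5 at 1.41 (standard error 0.13) and STIP1 at 1.29 (standard error 0.09). HSPA5 differed by 0.91 (standard error 0.13, adjusted p = 1.62e-05), with cSNX1.3 libraries at 525 to 753 CPM and erlotinib libraries at 327 to 338 CPM. HSPA8, HSPA1A, DNAJB1 and HSF1, which neither drug moved past the threshold against EGF, were higher with cSNX1.3 than with erlotinib by 0.38, 0.29, 0.34 and 0.46. The call of HSPA8 was lost without erlotinib replicate 1 and without cSNX1.3 replicate 1, and that of HSPA1A without erlotinib replicate 2 and without cSNX1.3 replicates 1 or 2. The 5 that were lower with cSNX1.3 were DNAJB4 at -0.85, XBP1 at -0.73, DNAJB9 at -0.69, HSPB1 at -0.41 and DNAJB2 at -0.27, and the libraries of HSPB1 overlapped. The number called lower was 3 without erlotinib replicate 1 and 3 without cSNX1.3 replicate 3, where the calls of HSPB1 and DNAJB2 were lost, and HSPB1 was also lost without cSNX1.3 replicate 2.

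In ΔNLS vs. WT, which asks what the mutation of the nuclear localization sequence does, members were called in both directions, and the counts by compartment are given without a test of their difference. Of 49 tested members, 18 were called, against 41.4% of all genes. A total of 9 were higher, against 20.4% of all genes, and 9 were lower, against 21.0% of all genes, so the share of members called was near that of all genes. The median log2 fold change was 0.01, the same as for all genes. In the ER, 5 of 10 members were lower and 2 higher, with a median of -0.24. In the mitochondria 2 of 5 were higher, none was lower and all 5 were above 0, with a median of 0.17, but both calls, HSPD1 and HSPA9, were lost without ΔNLS replicate 3 or WT replicate 3. In the cytosol 5 of 34 were higher and 4 lower, with a median of 0.00. The number called higher was 14 without WT replicate 2, 4 without WT replicate 3 and 5 without WT replicate 1 or ΔNLS replicate 3, while the number called lower stayed between 8 and 11.

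HSPA5 had the largest fall of the well-measured members. It was at 292, 332 and 298 CPM in WT and at 209, 176 and 182 CPM in ΔNLS. No ΔNLS library reached a WT library, and the log2 fold change was -0.70 (standard error 0.08, adjusted p = 3.05e-06). XBP1 was at 325, 430.4 and 318 CPM in WT and at 240.5, 234 and 248 CPM in ΔNLS. WT replicate 2 lay apart at the top, but the groups did not overlap, and the log2 fold change was -0.57 (standard error 0.10, adjusted p = 0.000189). HSP90B1 was at 331, 326.5 and 342 CPM in WT and at 262, 270.5 and 255 CPM in ΔNLS, a log2 fold change of -0.34 (standard error 0.07, adjusted p = 0.000553). These are the 3 members with an ER stress element in the promoter window shown above. DNAJB9 was at 27.0, 32.8 and 28.6 CPM in WT and at 21.2, 22.4 and 21.6 CPM in ΔNLS, a log2 fold change of -0.44 (standard error 0.09, adjusted p = 0.000840), and DNAJC3 fell by 0.32. Those calls of the ER members were not lost under any alternative.

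HYOU1 and HSPA13 were the ER members called higher. HYOU1 was at 145, 139 and 146 CPM in WT and at 203, 174 and 188 CPM in ΔNLS, higher in all 3 ΔNLS libraries, and the log2 fold change was 0.40 (standard error 0.07, adjusted p = 0.000316). HSPA13, an HSP70-like ATPase, was higher by 0.26 (adjusted p = 0.0248), a call that was lost without ΔNLS replicate 2, without WT replicate 1 and without WT replicate 3. PDIA4, DNAJB11 and SDF2L1 were not called, at 0.04, -0.04 and -0.17.

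In the cytosol, the largest rise was that of HSPA4L, an HSP110 protein of low level. It was at 6.55, 6.71 and 6.52 CPM in WT and at 9.32, 10.2 and 9.50 CPM in ΔNLS, and the log2 fold change was 0.55 (standard error 0.11, adjusted p = 0.000651). Its relative HSPA4 fell by 0.30 (standard error 0.06, adjusted p = 0.00117), from 231 to 235 CPM in WT to 188 to 191 CPM in ΔNLS. HSPB11, which is also a part of the intraflagellar transport complex, was at 41.6, 44.1 and 42.2 CPM in WT and at 47.2, 56.5 and 53.3 CPM in ΔNLS, a log2 fold change of 0.30 (standard error 0.08, adjusted p = 0.00710). DNAJB6 rose by 0.29, and DNAJB2 and BAG1 fell by 0.48 and 0.47. HSP90AB1, STIP1, HSPD1 and HSPA9 were each called higher, by 0.19 to 0.21 on the log2 scale, from 1872 ± 53 to 2149 ± 72 CPM in the case of HSP90AB1 (SD, n = 3). The call of each of these 4 was lost without WT replicate 3, without ΔNLS replicate 3 and with the replicate number as a block. No CCT subunit of the set was called, though some were under alternatives. CCT4 at -0.20 (adjusted p = 0.0537) was called lower by DESeq2, and CCT3, CCT8 and TCP1 were called higher without WT replicate 2. HSP90AA1 was at -0.13 (adjusted p = 0.163).

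HSPA6 and HSPB8 had few counts in the lines too. HSPA6 had 15, 19 and 20 counts in WT and 7, 0 and 8 counts in ΔNLS, a fitted log2 fold change of -1.78 (standard error 0.55). It passed the filter on low counts only through WT, the group where it was high, so this call too is a description, and apart from it 8 members were lower. The call was lost with at least 10 counts required in every library and without ΔNLS replicate 2, the library with no count (adjusted p = 0.0549). HSPB8 had 7, 8 and 8 counts in WT and 0, 0 and 0 counts in ΔNLS. Set against a floor of 3 counts per library, HSPB8 was at least 2.47-fold lower in ΔNLS, and it had at most 5 counts in any library of the drug experiment.

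The effects of ΔNLS and cSNX1.3, which the study used as separate ways to lower nuclear EGFR, were compared as a difference of log2 fold changes in a fit of all 15 libraries. The difference passed the test in 13 of 49 members, against 23.1% of all genes. In 12, HSPA6 among them, the effect of ΔNLS was the lower, against 11.8% of all genes, and in 1 it was the higher, against 11.3% of all genes. HSPA5 differed by -1.33 (standard error 0.17, adjusted p = 3.68e-06), being higher with cSNX1.3 in 3 of 3 libraries and lower in ΔNLS in 3 of 3. Of the ER set, XBP1, SDF2L1, HSP90B1 and DNAJC3 also differed, by -0.68, -0.68, -0.61 and -0.55, and the call of SDF2L1 was lost when any of these was left out: EGF replicate 1 or 3, cSNX1.3 replicate 1 or 2, ΔNLS replicate 2 or 3 or any WT replicate. HYOU1 differed by -0.05 (standard error 0.11, adjusted p = 0.785) and was called higher in each of the 2 comparisons. No mitochondrial member passed the test, with values from -0.08 to 0.12. The member in which ΔNLS had the higher effect was HSPA4L, at 0.83 (standard error 0.17, adjusted p = 0.00127). The number in which ΔNLS had the higher effect was 3 without cSNX1.3 replicate 1 and 2 without ΔNLS replicate 1. The lines carried a hairpin, IPTG and a transfected EGFR that the drug experiment lacked, and these cannot be told apart from the way nuclear EGFR was lowered.

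**Figure D4:**
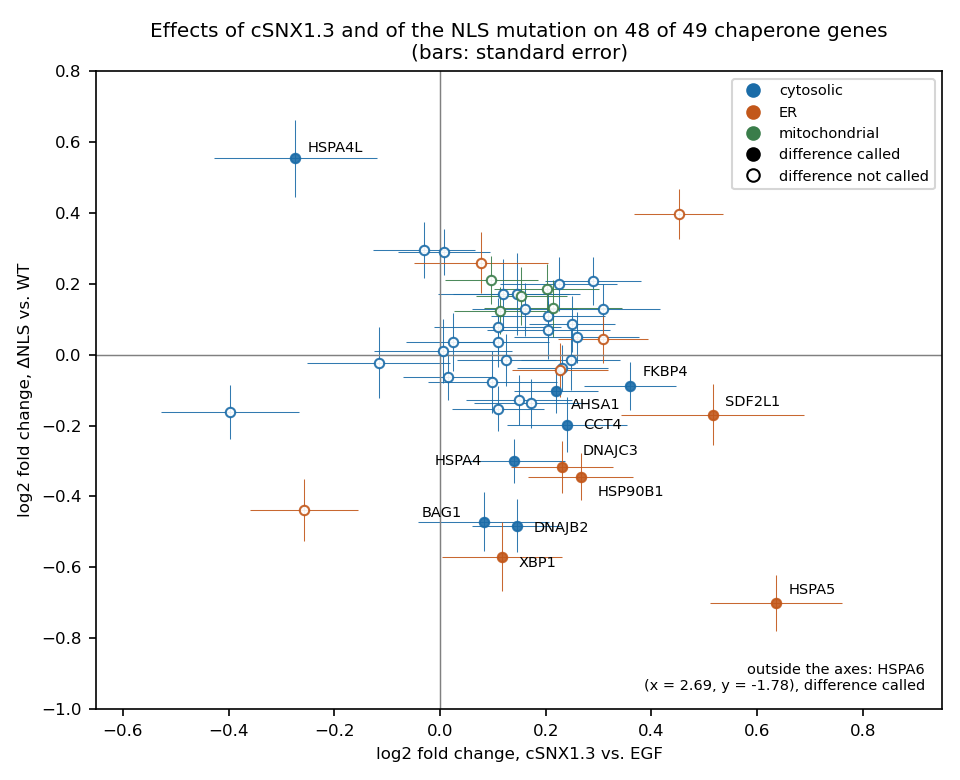
Log2 fold change in cSNX1.3 vs. EGF (x axis) and in ΔNLS vs. WT (y axis) of 48 of 49 tested chaperone genes, with bars for the standard error and filled, named points where the difference of the effects passed the test. HSPA5 lies at 0.64 and -0.70, HSPA4L lies at -0.27 and 0.55, and HSPA6 lies outside the axes at 2.69 and -1.78.

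Of the 8 members with a 3-unit heat shock element, 6 were lower with erlotinib (HSP90AB1, HSP90AA1, DNAJB6, CHORDC1, HSPD1 and DNAJA1), and HSPA8 and HSPA6 were not called. Of the 20 with the 2-unit form, among them HSPB8, which was not tested, 11 were lower, beside 29 of all 49 tested members and 21.2% of all genes. With cSNX1.3 HSPA6 was higher and the other 7 were not called, beside 3.38% of all genes higher. In ΔNLS, DNAJB6, HSP90AB1 and HSPD1 were higher, HSPA6 was lower, and 4 were not called, beside 20.4% of all genes higher and 21.0% lower. The calls of HSP90AB1 and HSPD1 were lost under 7 and 8 of 13 alternatives. Both calls of HSPA6 are conditioned on the group where it was high, as said above. Members that lack even the 2-unit form in the window, such as HSPH1, AHSA1, CCT5 and DNAJB5, were also lower with erlotinib. Of the 3 with an ER stress element, HSP90B1 was lower and XBP1 higher with erlotinib, and HSPA5 alone was called with cSNX1.3.

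Other chaperone genes, listed from general knowledge and not members of the set, were counted in the same fits, and their counts are to be read against the shares of all genes, which were 21.2% lower and 22.8% higher with erlotinib, 3.38% higher with cSNX1.3, and 21.0% lower and 20.4% higher in ΔNLS. Apart from the 3 largest changes of each list and comparison, those named here were chosen after their values were seen. With erlotinib, 13 of 31 other cytosolic chaperones were lower and 3 higher (median -0.20). Those that fell included CDC37 at -0.70, which brings kinases to HSP90, NUDC at -0.68 and the prefoldin subunit PFDN6 at -0.66. Not called were, among others, the co-chaperones PTGES3 at -0.27, DNAJC7 at -0.17, UNC45A at -0.05 and ST13 at 0.15. CRYAB, a small heat shock protein, rose by 0.66 with erlotinib, from 25.1, 33.6 and 26.5 CPM to 44.4, 44.5 and 45.5 CPM, and fell by 0.41 in ΔNLS. Of 20 other mitochondrial genes of folding and import, 8 were lower with erlotinib, such as GRPEL1 (-0.71), an exchange factor of mortalin, and 2 were higher. With cSNX1.3, GRPEL1 was the mitochondrial gene called, higher by 0.42, and of the cytosolic ones PFDN2 and TOMM34 were higher. In ΔNLS, 9 other cytosolic chaperones were higher, with PFDN2 at 0.55, and 4 were lower, and of the mitochondrial genes 5 were higher and 3 lower, DNAJC15 among them at -0.70.

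Of 30 other ER genes, 9 were lower and 8 higher with erlotinib. Those that were lower included the folding factors TXNDC5 (-0.75), ERO1A (-0.72), MANF (-0.68) and CALR (-0.62). Those that were higher included HERPUD1 (0.69) and SEL1L (0.64), parts of the machinery that removes misfolded ER proteins. Other genes of that machinery did not rise, EDEM1 being lower (-0.445) and SYVN1, DERL1, DERL2 and DERL3 not called. ATF6 (0.61), a sensor of the unfolded protein response, was higher, as were the folding genes SIL1 (0.32) and DNAJC1 (0.26). SIL1, like HYOU1, is a nucleotide exchange factor of the ER, and HYOU1 was lower with erlotinib. The others that rose were CREB3L2 (0.42), DDIT3 (0.39) and ATF3 (0.32). With cSNX1.3, 3 were higher and none was lower, namely TXNDC5 (0.91), ERO1A (0.46) and PPP1R15A (0.39). For TXNDC5, 61.1% of the exonic bases overlap other annotated genes. In ΔNLS, where HYOU1 was higher, 11 were lower, among them WFS1 (-0.82), ERO1A (-0.66), DNAJC10 (-0.48), PDIA3 (-0.44) and SIL1 (-0.39). Called higher were 3, namely ATF3 (0.73), DDIT3 (0.53) and PPP1R15A (0.37), which belong to the stress branch that acts through ATF4. These rises were not particular to ΔNLS, since ATF3 and DDIT3 were also called higher with erlotinib and PPP1R15A with cSNX1.3. For DDIT3, 39.6% of the exonic bases overlap other genes. The difference between the ΔNLS and cSNX1.3 effects passed the test in 11 of these 30, against 23.1% of all genes, 10 of them lower, and for ERO1A it was -1.12.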

How the data were processed

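Gene counts of 15 MDA-MB-468 libraries were analysed. According to the methods of the study, the authors trimmed the reads with TrimGalore, aligned them to GRCh38 with STAR and counted read pairs per Ensembl gene with featureCounts, unstranded. The deposited values are raw counts, not normalized. The annotation release they used is not given in the sources used here. Groups came from the sample labels. Of 61552 gene IDs, 61399 were matched to GENCODE 44.

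Differential expression was tested in R 4.3.3 with edgeR 4.0.16 (TMM scaling, filterByExpr by group, robust quasi-likelihood fit, Benjamini-Hochberg adjustment over all genes, threshold 0.05), with 9 libraries in the drug fit, 6 in the line fit and 15 for the difference of effects. Standard errors come from the fit and SDs from CPM. Library medians used log2 CPM with a prior count of 2. The test was tested on simulated counts: in erlotinib vs. EGF over 15738 genes it recovered 63 of 67 genes changed 2-fold and 49 of 67 changed 1.5-fold, and for the difference of effects over 16524 genes it recovered 19 of 67 changed 1.5-fold. Promoter windows are from RefSeq.

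The members and the other lists were chosen with earlier results of these data known. Described in full are named anchor genes where called and, in each of the 3 comparisons, the 3 largest rises and falls among called members. Other members given library by library were chosen after their values were seen. Alternatives were DESeq2 1.42.0 size factors or test, other filters on low counts, other sets of libraries in the fit, the replicate number as a block, a threshold of 0.01, summed HSPA1A and HSPA1B counts, and each library left out.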

Additional observations from a re-analysis of the deposited data

Results flagged for a closer look

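The effect of ΔNLS (vs. WT) and that of cSNX1.3 (vs. EGF) differed, by an interaction term in edgeR with Benjamini-Hochberg adjustment over all genes, in 13 of 49 chaperone genes, against 23.1% of all genes. Given as the ΔNLS effect minus the cSNX1.3 effect on the log2 scale, the differences were -4.46 for HSPA6, -1.33 for HSPA5, -0.68 for XBP1, -0.68 for SDF2L1, -0.62 for DNAJB2, -0.61 for HSP90B1, -0.55 for BAG1, -0.55 for DNAJC3, -0.44 for FKBP4, -0.44 for HSPA4, -0.43 for CCT4, -0.32 for AHSA1 and 0.83 for HSPA4L. The adjusted p was highest for CCT4 (0.0444) and SDF2L1 (0.0437) and lowest for HSPA5 (3.68e-06). The value of HSPA6 rests on at most 26 counts in any library, and the gene passed the filter on low counts only through the groups where it was high (cSNX1.3 and WT). The fitted effects had opposite signs in all 13. In 7 of them (HSPA5, HSPA6, HSPA4L, HSP90B1, DNAJC3, DNAJB2 and AHSA1) neither the ΔNLS nor the cSNX1.3 libraries overlapped their controls. The 13 were picked by the difference itself, which favors opposite signs and groups that lie apart, so both counts are descriptions. Neither was counted over all genes. Some of the effects were small and not called, such as 0.08 for BAG1 with cSNX1.3 and -0.09 for FKBP4 in ΔNLS. The calls of SDF2L1, CCT4, BAG1 and AHSA1 were each lost without ΔNLS replicate 2, and under other alternatives too. SDF2L1 is described above. CCT4 was also lost without EGF replicate 1 or 3, cSNX1.3 replicate 1, ΔNLS replicate 1 or 3, or WT replicate 1 or 2. BAG1 was also lost without EGF replicate 1, cSNX1.3 replicate 1, ΔNLS replicate 3 or WT replicate 2. AHSA1 was also lost without EGF replicate 3 and without the filter on low counts.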

How the results depend on the processing

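For erlotinib vs. EGF the number of chaperone genes called was 30 to 35 over all alternatives, and for cSNX1.3 vs. erlotinib it stayed within 1.5 times of 40. In cSNX1.3 vs. EGF it was 3 at an adjusted p under 0.01, 2 to 6 when each library was left out and 7 with all 15 libraries in the fit. For the difference of the ΔNLS and cSNX1.3 effects it was 8 at an adjusted p under 0.01, 9 to 14 when each library was left out and 18 with DESeq2 as the test. Of the fold changes of genes described in full, 669 values were counted as keeping their direction and call, 36 lost the call and none was reversed. A value with no adjusted p, such as that of HSPA6 by DESeq2 in cSNX1.3 vs. EGF, was counted as kept. Where a filter left a gene out, no value was counted. Of the medians of the whole set and its compartments, 4 of 160 moved by more than the spread between replicates.

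Replicates with the same number did not deviate together more than others (correlations -0.23 to 0.29, against -0.38 to 0.43 for other numbers). No pairing by number was seen, but with 3 replicates per group this check could not exclude it. With the replicate number as a block, 33 members were called in erlotinib vs. EGF, 4 in cSNX1.3 vs. EGF, 14 in ΔNLS vs. WT, 40 in cSNX1.3 vs. erlotinib and 13 for the difference of effects. The calls lost were those of PDIA4 in cSNX1.3 vs. EGF and of HSP90AB1, HSPA9, HSPD1 and STIP1 in ΔNLS vs. WT, and the block changed no other call.

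Depth limits HSPA6 and HSPB8, which had at most 26 counts in any library. HSPA1A and HSPA1B share most of their sequence, and with their counts summed no number of calls changed. Some changes of 1.5-fold were missed in simulated counts, and for the difference of effects 19 of 67 were recovered, so a member without a call is not shown to be unchanged.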
